A study of Mus musculus with 24 samples.

Results

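The cell cycle and proliferation genes described here are 34 genes of DNA replication and mitosis, chosen by symbol, whose transcripts were measured in the mouse plantaris, a hindlimb muscle that extends the ankle. For each gene the probe set with a single gene symbol and the highest mean over all 24 arrays was used. Such a probe set existed for 33 of the 34 genes, out of 19937 genes in all. The transcript of Ccnb1 was not analysed here, and only its promoter was searched. The 4 groups, with 6 mice and 6 arrays each, were untreated wildtype, overloaded wildtype, untreated Mstn-/- and overloaded Mstn-/- mice, all aged 3 months. Mstn-/- mice lack functional myostatin, a secreted protein of the TGF-beta family that restrains muscle growth. In the overloaded groups the soleus and most of the gastrocnemius were taken out of both legs under pentobarbitone (50 mg/kg), and the remaining plantaris of one side was used. The untreated mice had no operation, so loading and the surgery itself cannot be told apart. The sources used here give neither the duration of the overload nor the strain or the form of the Mstn allele.

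A cell that divides first loads the MCM helicase onto its DNA and copies it behind the sliding clamp PCNA, using deoxynucleotides made by ribonucleotide reductase. Cyclin-dependent kinase 1 with its A- and B-type cyclins then drives mitosis, in which kinesins build the spindle, the checkpoint proteins watch the kinetochores and anillin and its partners cut the cell apart. Transcripts of most of these genes are kept low in resting cells by the E2F and DREAM repressor complexes and rise when a cell enters the cycle. The nuclei of a muscle fibre do not divide, so in muscle these genes are known as markers of the mononuclear cells that lie between and on the fibres, among them satellite cells, macrophages, fibroblast-like progenitors and endothelial cells.

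The promoters of 29 of the 34 genes were taken from RefSeq promoters on GRCm38.p6. The 250 bases before each annotated start were searched on both strands for 3 kinds of motif that bind the regulators named above: the CHR element, which DREAM and related complexes bind and which was searched as TTTGAA and in its other form as TTTAAA, the CCAAT box, bound by NF-Y, and E2F sites, searched as TTTCGCGC, as TTTGGCGC and also as GGCGGGAA. TTTAAA reads the same on both strands and was counted once, and matches of the E2F motifs can overlap each other. A CHR match lay before 14 of the 29 genes (48.3%), against 25.5% of 27025 genes in the table. A CCAAT match lay before 25 (86.2%, against 34.5%), an E2F match before 4 (13.8%, against 2.52%), and CHR and CCAAT together before 12 (41.4%, against 8.995%). In the mitotic genes CHR matches were found before 11 of 20 promoters and E2F matches before 1, and in the replication and nucleotide genes CHR matches before 3 of 9 and E2F matches before 3.

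Printed below are the 200 bases before the start of 3 mitotic genes with large rises under overload and both CHR and CCAAT matches, Mki67, Top2a and Ccnb2, and of Mcm6, the MCM gene with the largest rise, which had E2F and CCAAT matches and no CHR match. Capitals mark the motif matches, and a match on the other strand reads as its reverse complement, so that ATTGG is a CCAAT box and TTCAAA a CHR element. Each is read on the strand of its gene, which is the minus strand in all 4 cases.
Mki67, chr7:135716380-135716579: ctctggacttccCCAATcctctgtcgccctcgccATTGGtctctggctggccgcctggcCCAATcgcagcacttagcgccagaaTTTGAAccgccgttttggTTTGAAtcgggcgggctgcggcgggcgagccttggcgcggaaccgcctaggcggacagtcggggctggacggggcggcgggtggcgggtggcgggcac
Top2a, chr11:99024190-99024389: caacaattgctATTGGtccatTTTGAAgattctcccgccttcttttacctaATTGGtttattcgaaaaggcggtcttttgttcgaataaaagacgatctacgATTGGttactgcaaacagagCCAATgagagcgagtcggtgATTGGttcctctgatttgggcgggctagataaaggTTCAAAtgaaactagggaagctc
Ccnb2, chr9:70421555-70421754: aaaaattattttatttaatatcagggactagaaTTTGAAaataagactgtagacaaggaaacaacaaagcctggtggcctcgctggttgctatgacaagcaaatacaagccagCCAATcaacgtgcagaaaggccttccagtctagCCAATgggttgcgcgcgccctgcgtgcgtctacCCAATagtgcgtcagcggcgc
Mcm6, chr1:128359706-128359905: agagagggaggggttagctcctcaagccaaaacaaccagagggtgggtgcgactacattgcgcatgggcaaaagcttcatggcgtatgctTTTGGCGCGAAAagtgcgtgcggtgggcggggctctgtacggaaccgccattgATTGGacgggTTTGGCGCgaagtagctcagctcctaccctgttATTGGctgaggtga
The Mki67 promoter held 2 CHR matches close to each other, with first bases at positions -116 and -98 from the start, downstream of its CCAAT matches. In Mcm6 one long run of capitals holds 2 overlapping E2F matches, one on each strand, at positions -110 and -106. These are matches of letters and show no binding.

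**Figure D1:**
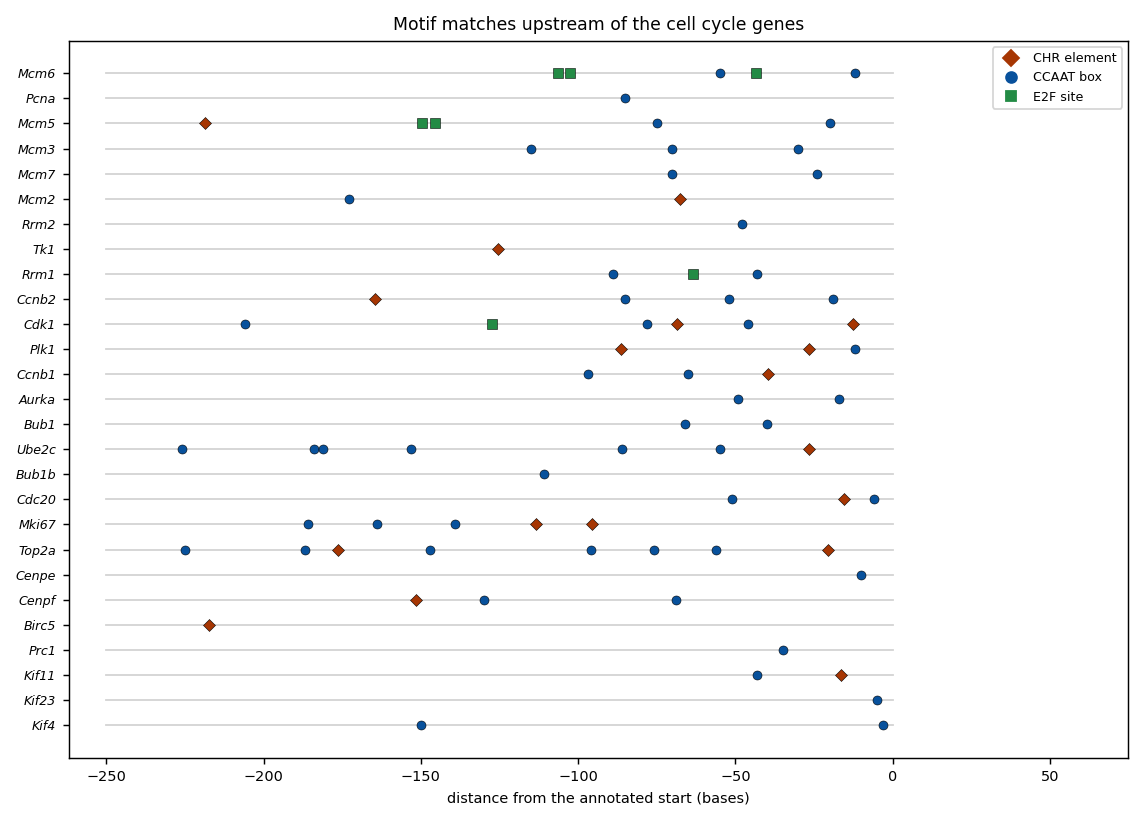
Position of each CHR, CCAAT and E2F match (colour and shape) in the 250 bases before the annotated start, in bases, for the genes with at least 1 match, ordered by role and then by the size of their change under overload. Ccnb1, whose transcript was not analysed, is placed like a gene without change. CCAAT matches are found in most rows, CHR matches mainly in the mitotic genes and E2F matches in Mcm6, Mcm5, Rrm1 and Cdk1.

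The deposited values are linear intensities and were compared as log2 intensity. Array medians lay between 139 and 147 in intensity, and the number of arrays limits the precision, with a median standard error (SE) of 0.10 for a log2 difference between 2 groups of these genes. Differences were tested with limma over all 19937 genes, and a gene was called at an adjusted p of 0.05. Genes of the muscle fibre such as Acta1 and Ckm were high on all arrays (mean log2 of 8 fibre genes 12.8 to 13.5). Mstn itself was lower in untreated Mstn-/- than in untreated wildtype muscle (log2 8.93 ± 0.31 against 10.25 ± 0.11, SD, n = 6, adjusted p = 3e-08) and did not differ by the test between the overloaded groups (8.25 ± 0.30 against 8.40 ± 0.19, adjusted p = 0.45), so its level bears on the labels of the untreated mice only.

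In untreated muscle many of these genes lay near the background of the array. A gene was counted as near background where its group mean was under the 30th percentile of all probe sets with a single symbol, a log2 intensity of 6.63 (98.9 in intensity). For scale, 1027 olfactory receptor genes, most of which muscle is not expected to express, had a median of 4.98 and a 95th percentile of 6.75. By the percentile rule 15 genes were near background in both untreated groups: the helicase subunit Mcm6, the cyclin Ccna2, the checkpoint kinases Bub1 and Bub1b, Top2a, Cenpe, Cenpf and Birc5 of the chromosomes and kinetochore, and Kif11, Kif20a, Kif23, Kif4, Nusap1, Prc1 and Anln of the spindle and cleavage furrow. Tpx2 was near background in untreated wildtype only (6.41, against 6.73 in untreated Mstn-/- muscle), and Mki67 in untreated Mstn-/- muscle only (6.61, against 6.77). The other 16 genes were above that level in both untreated groups: Mcm2, Mcm3, Mcm4, Mcm5, Mcm7, Pcna, Rrm1, Rrm2, Tk1, Ccnb2, Cdk1, Plk1, Aurka, Aurkb, Cdc20 and Ube2c. Of these, Rrm2 in both untreated groups (6.74 and 6.65) and Plk1 in untreated Mstn-/- muscle (6.71) were under the 95th percentile of the olfactory receptor genes, under which 17 genes lay in wildtype and 19 in Mstn-/- muscle without overload. The genes nearest to the 30th percentile on either side were Mki67 and Rrm2 in untreated Mstn-/- muscle, at 6.61 and 6.65. Near background an intensity can hold a large share of unspecific signal, so a fold change from there may misstate the change in transcript. That share was not measured here.

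All 15 genes near background in both untreated groups rose under overload in both genotypes. Of the 15, 11 were above the background level in overloaded wildtype muscle and 10 in overloaded Mstn-/- muscle. Bub1, Cenpe, Birc5 and Kif4 stayed under it in all 4 groups, and Cenpf was above it in overloaded wildtype (6.68) and under it in overloaded Mstn-/- muscle (6.57). Kif4, a chromosome-bound kinesin, had group means of 4.95 and 5.01 in the untreated groups and 5.58 and 5.38 in the overloaded ones. Of the 16 genes above background in both untreated groups, 11 rose and 2 fell in wildtype and 10 rose in Mstn-/- muscle. Over all genes 23.3% were called higher and 31.7% lower in wildtype, and 20.6% and 30.1% in Mstn-/- muscle. The split into 15 and 16 used the untreated means, which are also the base of the overload difference, so it is a description. The share among all genes that start near background was not worked out.

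**Figure D2:**
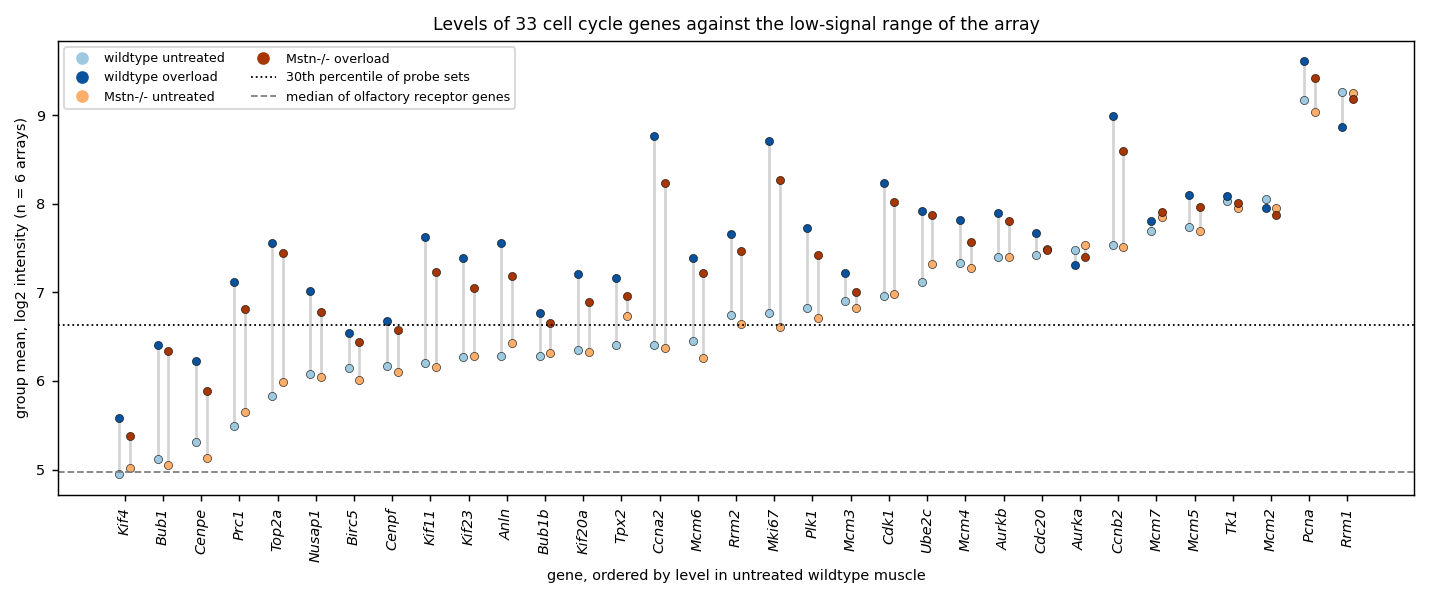
Group mean log2 intensity (n = 6 arrays) of each of the 33 genes in the 4 groups, with grey lines from untreated to overload in each genotype, the 30th percentile of probe sets (6.63, dotted) and the median of 1027 olfactory receptor genes (4.98, dashed). 15 genes start under the dotted line in both genotypes and 4 stay under it. Heights of different genes come from different probes and are not comparable.

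Overload raised most of the replication and mitosis genes in wildtype muscle. 28 of 33 rose and 2 fell (Rrm1 and Aurka), while 23.3% of all genes were called higher and 31.7% lower. Mcm2, Mcm7 and Tk1 were not called. The median log2 difference of the 33 was 0.81 (1.75-fold), and that of all genes -0.08. In 27 of the 33 every overloaded array was above every untreated one, as in 16.7% of all genes, in 1 (Rrm1) every overloaded array was below, as in 16.4% of all genes, and 10 rose at least 2-fold, as did 4.41% of all genes. In Mstn-/- muscle 26 of 33 rose and none was called lower at the adjusted threshold, against 20.6% and 30.1% of all genes, with a median of 0.56 (1.47-fold) against -0.08 for all genes. Here the arrays were fully apart in 20 genes (14.9% of all genes) and 8 rose at least 2-fold (2.87% of all genes). All 26 also rose in wildtype. Cdc20 and Tpx2 were called in wildtype and not in Mstn-/- muscle.

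In a whole muscle, more cells of a type and more RNA per cell cannot be told apart. Markers of some other cell types rose under overload too, while others moved little. Over all genes 23.3% were called higher and 31.7% lower in wildtype, and 20.6% and 30.1% in Mstn-/- muscle. All 12 macrophage markers rose in both genotypes, with a median log2 difference of 2.31 in wildtype and 1.54 in Mstn-/- muscle. Their mean log2 intensity ran from 7.59 to 8.06 over the untreated and 9.76 to 10.3 over the overloaded wildtype arrays, and from 8.02 to 8.31 and 9.25 to 10.2 over the Mstn-/- arrays. Of 9 fibro-adipogenic progenitor markers 8 and 7 rose (array means 9.66 to 10.1 and 11.2 to 11.5 in wildtype, 9.85 to 10.2 and 10.8 to 11.2 in Mstn-/- muscle), and of 10 endothelial markers 9 rose in each genotype. Endothelial array means were 9.04 to 9.29 untreated and 9.36 to 9.67 overloaded in wildtype, and 8.94 to 9.17 and 9.48 to 9.62 in Mstn-/- muscle. Of 10 satellite cell and myoblast markers 4 rose and 2 fell in wildtype, and 5 rose and 2 fell in Mstn-/- muscle, with medians of 0.13 and 0.11. Their array means were 7.58 to 7.74 untreated and 8.03 to 8.22 overloaded in wildtype, and 7.60 to 7.705 and 7.96 to 8.13 in Mstn-/- muscle. The 8 muscle fibre genes had a median difference of -0.29 in wildtype and -0.15 in Mstn-/- muscle. Median differences in wildtype and Mstn-/- muscle were 0.09 and 0.02 for lymphocyte markers and 0.37 and 0.27 for neutrophil markers. For smooth muscle and pericyte markers they were 0.06 and 0.28. The part of these cells in the results on the cell cycle genes was not tested.

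**Figure D3:**
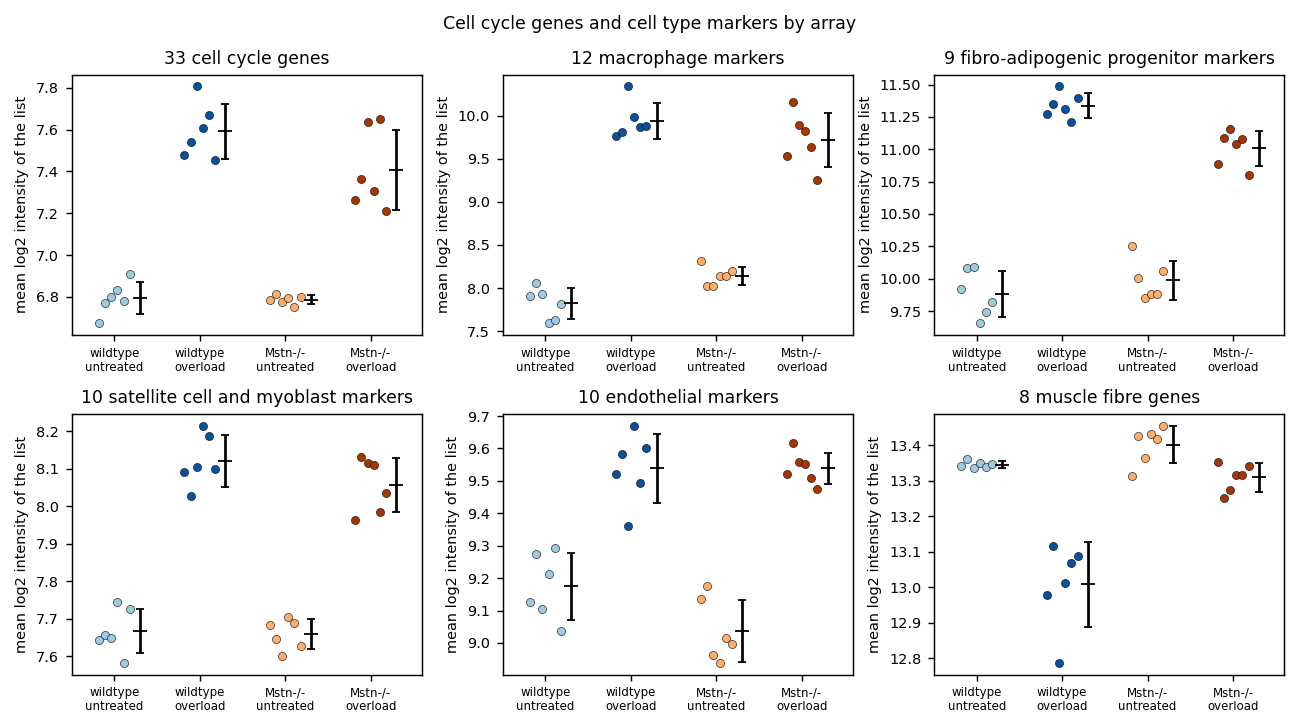
Mean log2 intensity per array of the 33 cell cycle genes and of 5 marker lists in the 4 groups. Points are arrays, and bars are the group mean and SD (n = 6). The cell cycle, macrophage, progenitor, satellite cell and endothelial lists of all overloaded arrays lie above those of all untreated arrays. The fibre genes of overloaded wildtype arrays lie below the other groups.

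The 6 subunits of the replicative helicase did not move alike. Mcm6 was the only one to rise by more than 0.5 on the log2 scale. Its lowest, median and highest array were 6.27, 6.48 and 6.59 in untreated wildtype, 7.23, 7.36 and 7.58 in overloaded wildtype, 5.97, 6.31 and 6.37 in untreated Mstn-/- and 6.91, 7.23 and 7.41 in overloaded Mstn-/- muscle. Every overloaded array was above every untreated one. Mcm6 rose by 0.94 ± 0.08 (SE) in wildtype (1.91-fold, adjusted p = 2.4e-10) and by 0.95 ± 0.08 in Mstn-/- muscle (1.93-fold, adjusted p = 4e-10). Mcm3, Mcm4 and Mcm5 rose by 0.31 to 0.48 in wildtype, with no overlap of arrays, and by 0.18 to 0.29 in Mstn-/- muscle, where the arrays overlapped. For Mcm3 in Mstn-/- muscle the call was lost when the arrays were shifted to the same median (log2 0.12, adjusted p = 0.11, range over 8 alternatives 0.019 to 0.11).

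Mcm7 differed little between the groups. Its arrays ran from 7.59 over 7.64 to 7.84 in untreated wildtype, from 7.69 over 7.78 to 7.99 in overloaded wildtype, from 7.68 over 7.82 to 8.02 in untreated Mstn-/- and from 7.77 over 7.91 to 8.02 in overloaded Mstn-/- muscle. The groups overlapped, and the differences were 0.11 ± 0.07 in wildtype (adjusted p = 0.15) and 0.06 ± 0.07 in Mstn-/- muscle (adjusted p = 0.47). Mcm2 gave -0.11 ± 0.05 and -0.07 ± 0.05 (adjusted p = 0.073 and 0.25), and was called lower in both genotypes under another quantile normalization or a shift to the same median.

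Pcna, the sliding clamp of the replication fork, was well above background in all groups. In untreated wildtype its lowest, median and highest arrays were 9.02, 9.16 and 9.31, in overloaded wildtype 9.46, 9.58 and 9.82, in untreated Mstn-/- 8.84, 9.06 and 9.31 and in overloaded Mstn-/- muscle 9.23, 9.44 and 9.61. The wildtype groups did not overlap and the Mstn-/- groups did. The rise was 0.43 ± 0.08 in wildtype (1.35-fold, adjusted p = 3.3e-05) and 0.38 ± 0.08 in Mstn-/- muscle (1.30-fold, adjusted p = 2e-04). A further Pcna probe set gave 0.12 in wildtype and 0.55 in Mstn-/- muscle, and with the mean of both the wildtype rise was no longer called (0.28, adjusted p = 0.06, range over 9 alternatives 1e-05 to 0.06).

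The subunits of ribonucleotide reductase went in different directions. Rrm2, the small subunit, whose level is known to follow S phase, had lowest, median and highest arrays of 6.33, 6.79 and 6.96 in untreated and 7.50, 7.65 and 7.82 in overloaded wildtype, and of 6.24, 6.74 and 6.89 in untreated and 7.22, 7.41 and 7.85 in overloaded Mstn-/- muscle. Overloaded arrays were all above untreated ones, with rises of 0.92 ± 0.11 (1.89-fold, adjusted p = 9.8e-08) and 0.82 ± 0.11 (1.77-fold, adjusted p = 1e-06). Rrm1, the large subunit, had lowest, median and highest arrays of 9.14, 9.20 and 9.52 in untreated and 8.76, 8.84 and 9.08 in overloaded wildtype, and of 9.15, 9.24 and 9.38 in untreated and 9.11, 9.16 and 9.29 in overloaded Mstn-/- muscle. The overloaded wildtype arrays were below all arrays of the other 3 groups. In wildtype Rrm1 fell by 0.39 on the log2 scale (1.31-fold, SE 0.06, adjusted p = 9.1e-06), and in Mstn-/- muscle the difference was -0.07 ± 0.06 (adjusted p = 0.35).

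Tk1, the thymidine kinase of the salvage pathway, was level across the groups: its arrays ran from 7.94 over 8.06 to 8.12 in untreated and 7.92 over 8.11 to 8.20 in overloaded wildtype, and from 7.84 over 7.97 to 8.05 and 7.88 over 8.02 to 8.09 in Mstn-/- muscle. All 4 groups overlapped. The differences under overload were 0.06 ± 0.05 and 0.05 ± 0.05 (adjusted p = 0.37 and 0.43), and a further Tk1 probe set gave 0.16 and 0.15.

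**Figure D4:**
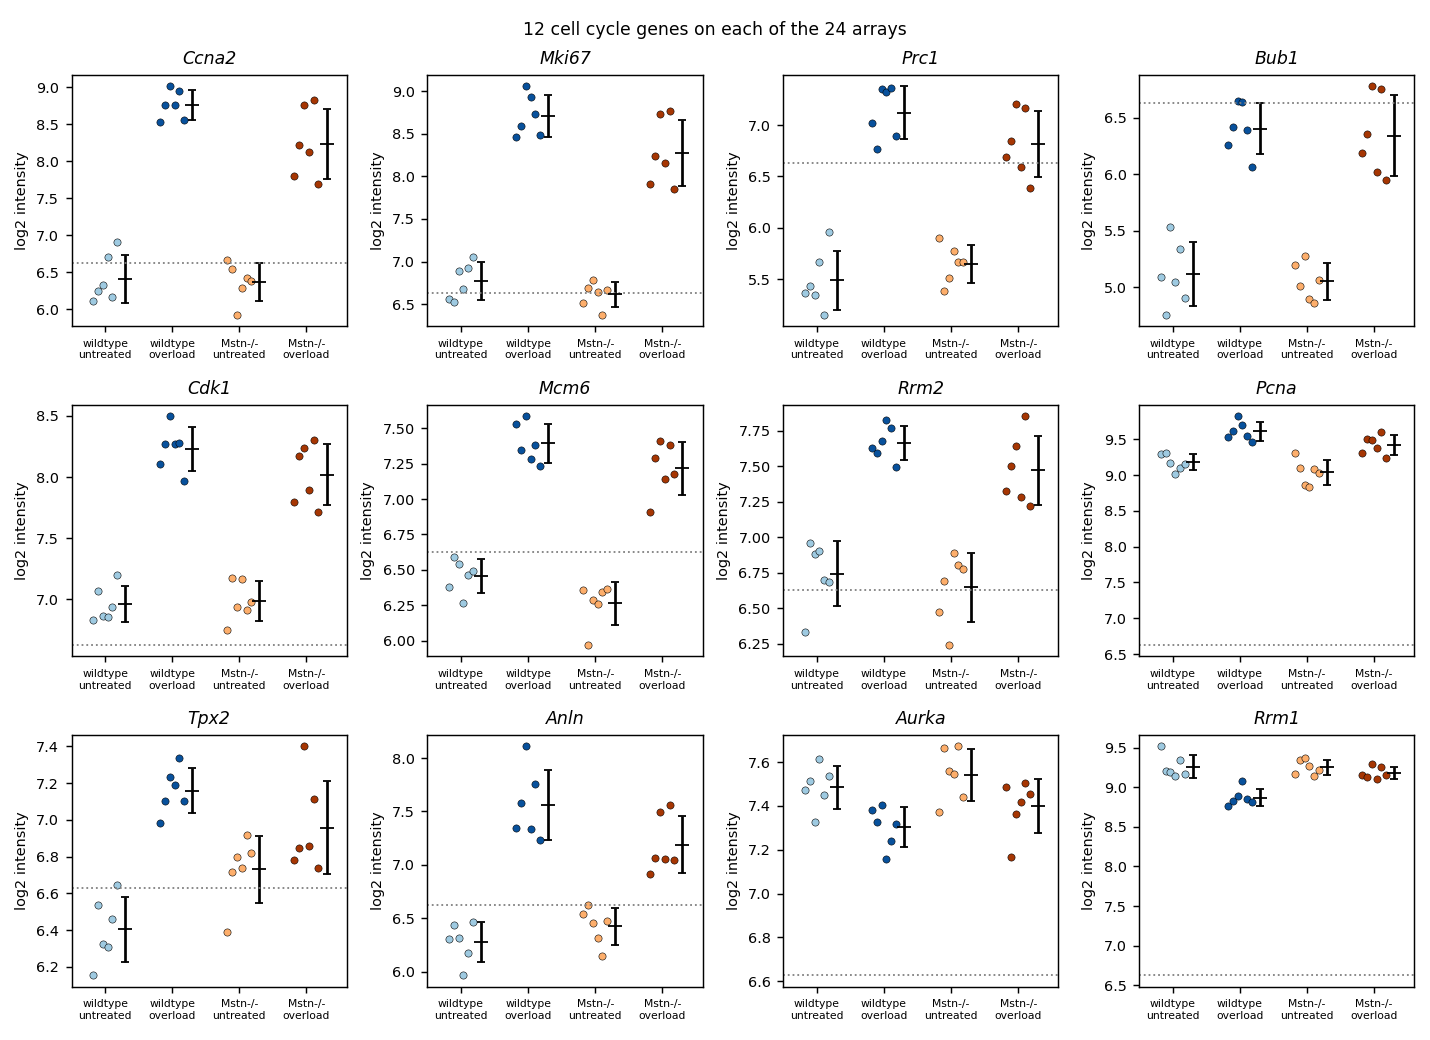
Log2 intensity of 12 cell cycle genes on each of the 24 arrays, by group. Points are arrays, bars are the group mean and SD (n = 6), and the dotted line is the background level (6.63). Ccna2, Mki67, Prc1, Bub1, Cdk1, Mcm6, Rrm2 and Anln separate overloaded from untreated arrays in both genotypes, Pcna and Tpx2 do so in wildtype only, and Aurka and Rrm1 do not rise. The axes differ between panels.

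The cyclins and mitotic kinases held the largest rise of all 33 genes. Ccna2, cyclin A2, which partners kinases in S phase and early mitosis, had lowest, median and highest arrays of 6.11, 6.28 and 6.90 in untreated and 8.54, 8.76 and 9.02 in overloaded wildtype, and of 5.93, 6.40 and 6.66 in untreated and 7.69, 8.17 and 8.83 in overloaded Mstn-/- muscle. The overloaded arrays were far above the untreated ones, and the spread among overloaded Mstn-/- arrays (SD 0.47) was the widest of its 4 groups. Ccna2 rose 5.10-fold in wildtype (log2 2.35 ± 0.17, adjusted p = 5.2e-12), the 90th largest log2 difference of 19937 genes, and 3.65-fold in Mstn-/- muscle (1.87 ± 0.17, adjusted p = 8.6e-10), the 98th largest. These folds start from near background.

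Ccnb2, a B-type cyclin, had arrays of 7.33, 7.51 and 7.79 (lowest, median, highest) in untreated and 8.75, 8.96 and 9.40 in overloaded wildtype, and of 7.04, 7.58 and 7.82 and 8.19, 8.56 and 9.04 in untreated and overloaded Mstn-/- muscle. It rose 2.75-fold (1.46 ± 0.13, adjusted p = 3.9e-10) and 2.12-fold (1.09 ± 0.13, adjusted p = 1.4e-07), with the groups apart in both genotypes. For Cdk1, the kinase that drives mitosis, the untreated arrays ran from 6.83 over 6.90 to 7.20 in wildtype and 6.75 over 6.96 to 7.18 in Mstn-/- muscle, and the overloaded ones from 7.97 over 8.27 to 8.50 and 7.72 over 8.03 to 8.31. The groups were apart again. Cdk1 rose 2.42-fold (1.27 ± 0.10, adjusted p = 2.9e-11) and 2.04-fold (1.03 ± 0.10, adjusted p = 3.1e-09). The polo kinase Plk1 rose by 0.90 and 0.71, and Aurkb, the Aurora kinase of the chromosomal passenger complex, by 0.50 and 0.41, in each case with no overlap of arrays.

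Aurka, the Aurora kinase of the spindle poles, did not rise. Its lowest, median and highest arrays were 7.33, 7.49 and 7.61 in untreated and 7.16, 7.32 and 7.40 in overloaded wildtype, and 7.37, 7.55 and 7.67 and 7.17, 7.44 and 7.50 in Mstn-/- muscle. The groups overlapped in each genotype. Aurka fell by 0.18 in wildtype (1.13-fold, SE 0.06, adjusted p = 0.02), a call that was lost without untreated or overloaded wildtype replicate 4 (adjusted p = 0.055 and 0.056, lowest over the arrays left out 0.0081). In Mstn-/- muscle the difference was -0.14 ± 0.06 (adjusted p = 0.065), and it was called lower under 4 of 9 alternatives (adjusted p from 0.0074 to 0.097 over the 9). It was also called without untreated Mstn-/- replicate 1 or 6 or overloaded Mstn-/- replicate 5. The responses of the genotypes did not differ by the test (0.04 ± 0.09, adjusted p = 0.88).

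Of the spindle checkpoint and anaphase genes, Bub1 rose most. Bub1 is the kinase that marks kinetochores not yet attached. Its lowest, median and highest arrays were 4.76, 5.07 and 5.54 in untreated and 6.06, 6.41 and 6.65 in overloaded wildtype, and 4.86, 5.04 and 5.28 and 5.95, 6.27 and 6.78 in Mstn-/- muscle. The rise was 1.29 ± 0.14 in each genotype (2.45-fold, adjusted p = 9.8e-09 and 1.9e-08), with all overloaded arrays above all untreated ones and all group means under the background level. Bub1b, the checkpoint protein BubR1, rose by 0.49 and 0.34, and Ube2c, the ubiquitin-conjugating enzyme of the anaphase-promoting complex, by 0.81 and 0.56.

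Cdc20, which activates the anaphase-promoting complex, changed least of this group. Its arrays ran from 7.22 over 7.39 to 7.77 in untreated and from 7.48 over 7.71 to 7.83 in overloaded wildtype, and from 7.25 over 7.51 to 7.64 and 7.36 over 7.45 to 7.69 in Mstn-/- muscle, with overlap throughout. It rose by 0.26 ± 0.08 in wildtype (1.20-fold, adjusted p = 0.012) and gave -0.02 ± 0.08 in Mstn-/- muscle (adjusted p = 0.89). The wildtype call was lost under another quantile normalization (0.20, adjusted p = 0.058, range over 9 alternatives 0.008 to 0.058).

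All 5 genes of the chromosomes and kinetochore rose in both genotypes, each with the arrays fully apart. Mki67, whose protein Ki-67 coats mitotic chromosomes and is the common marker of cycling cells, had lowest, median and highest arrays of 6.52, 6.79 and 7.06 in untreated and 8.46, 8.66 and 9.06 in overloaded wildtype, and of 6.38, 6.66 and 6.78 and 7.86, 8.20 and 8.76 in Mstn-/- muscle. It rose 3.83-fold (1.94 ± 0.14, adjusted p = 4.4e-12) and 3.17-fold (1.66 ± 0.14, adjusted p = 1.8e-10). Top2a, the topoisomerase that untangles replicated chromosomes, rose 3.32-fold and 2.75-fold (1.73 and 1.46). A further Top2a probe set, with group means of 3.40 to 3.90 at the bottom of the array's range, gave 0.05 and 0.25.

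Birc5, survivin, a subunit of the chromosomal passenger complex, rose least among these. Its arrays ran from 5.89 over 6.20 to 6.25 in untreated and from 6.36 over 6.56 to 6.69 in overloaded wildtype, and from 5.79 over 6.04 to 6.19 and 6.34 over 6.40 to 6.72 in Mstn-/- muscle. The groups were apart although all were near background, and the rises were 0.39 ± 0.08 (1.31-fold, adjusted p = 8.1e-05) and 0.43 ± 0.08 (1.35-fold, adjusted p = 3.2e-05). The kinetochore motor Cenpe rose by 0.91 and 0.76 and the kinetochore protein Cenpf by 0.51 and 0.47.

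The 8 genes of the spindle and cytokinesis all rose in wildtype, with the arrays fully apart and a median of 1.03 (2.04-fold), and 7 of 8 rose in Mstn-/- muscle, with a median of 0.74 (1.68-fold). Prc1, which bundles the microtubules of the central spindle, had lowest, median and highest arrays of 5.15, 5.40 and 5.96 in untreated and 6.77, 7.17 and 7.37 in overloaded wildtype, and of 5.39, 5.66 and 5.91 and 6.39, 6.77 and 7.21 in Mstn-/- muscle. It rose 3.10-fold (1.63 ± 0.14, adjusted p = 1.3e-10) and 2.24-fold (1.16 ± 0.14, adjusted p = 1.1e-07). Kif11, the motor that pushes the spindle poles apart, rose by 1.42 and 1.07, Kif23 of the central spindle by 1.11 and 0.77, Nusap1 by 0.94 and 0.72, Kif20a by 0.85 and 0.57 and Kif4 by 0.64 and 0.37.

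Anln, the scaffold protein anillin of the cleavage furrow, had arrays of 5.97, 6.31 and 6.46 (lowest, median, highest) in untreated and 7.24, 7.47 and 8.11 in overloaded wildtype, and of 6.14, 6.46 and 6.62 and 6.92, 7.06 and 7.56 in Mstn-/- muscle. The groups were apart in both genotypes, and Anln rose 2.44-fold (1.28 ± 0.13, adjusted p = 2.6e-09) and 1.70-fold (0.76 ± 0.13, adjusted p = 1.9e-05). Tpx2, which activates Aurka and nucleates spindle microtubules, had arrays of 6.16, 6.39 and 6.65 in untreated and 6.99, 7.15 and 7.33 in overloaded wildtype, and of 6.39, 6.77 and 6.92 and 6.74, 6.85 and 7.40 in Mstn-/- muscle. Only the wildtype groups were apart. Tpx2 rose 1.69-fold in wildtype (0.75 ± 0.10, adjusted p = 3.8e-07) and gave 0.23 ± 0.10 in Mstn-/- muscle (adjusted p = 0.063), where it was called under another quantile normalization and with a replicate block (adjusted p = 0.042 and 0.027, range over 8 alternatives 0.027 to 0.14).

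**Figure D5:**
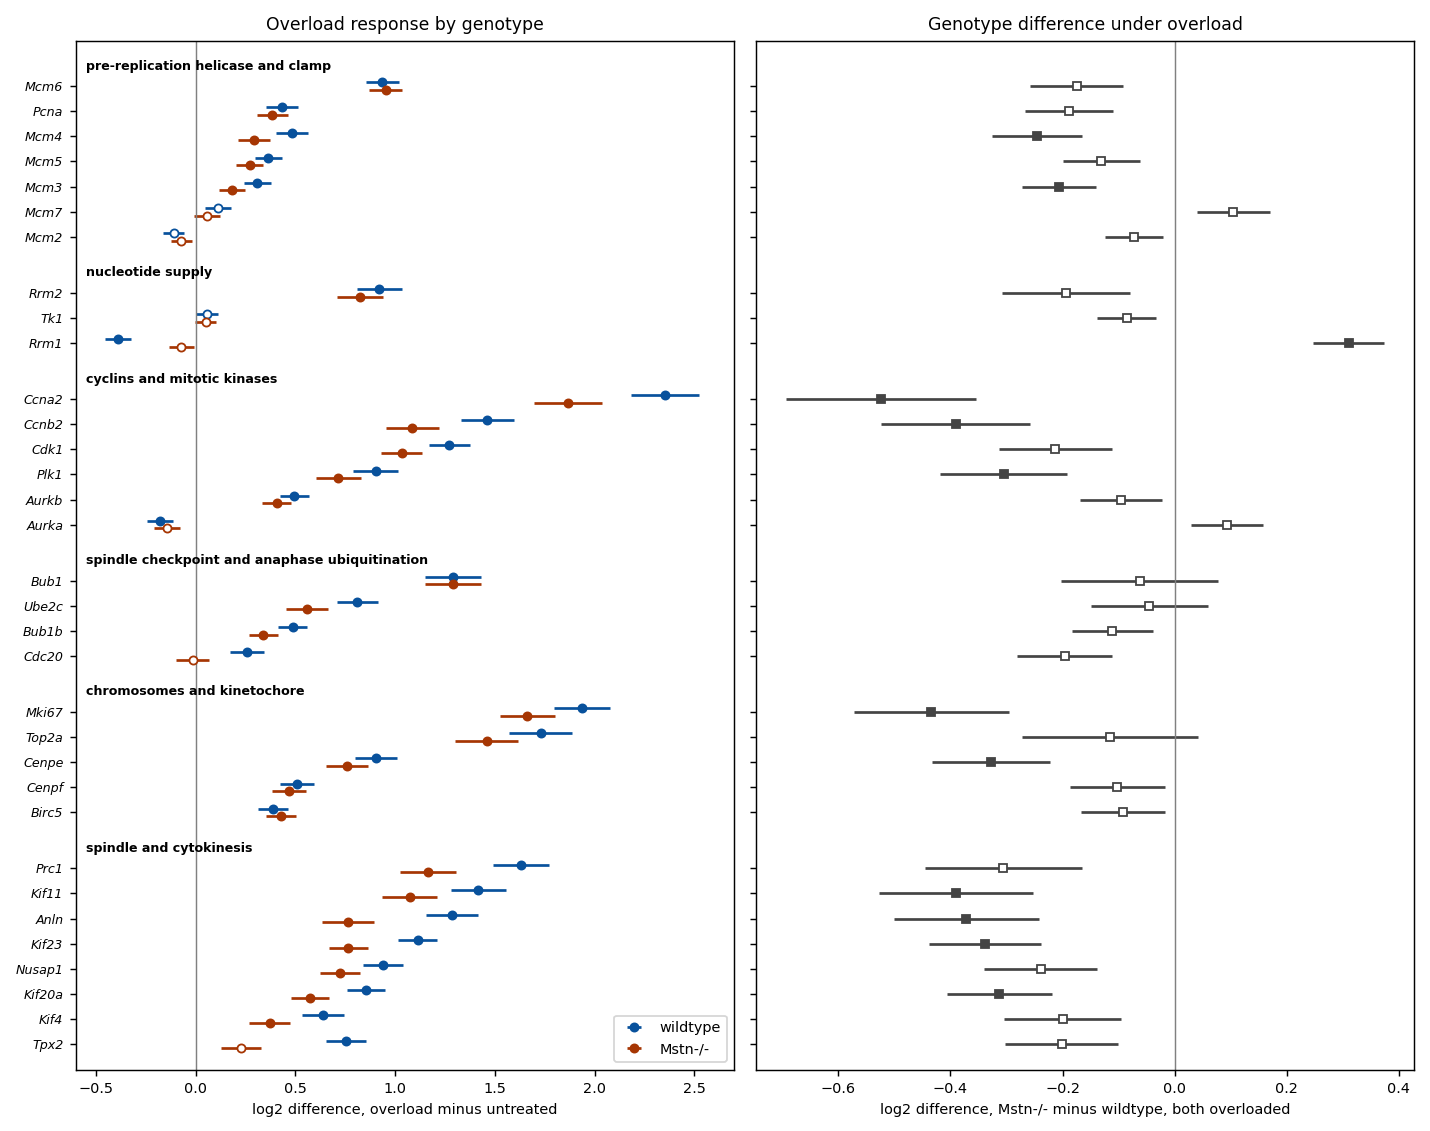
Left, log2 difference of overload minus untreated for each gene in wildtype and Mstn-/- muscle. Right, log2 difference of Mstn-/- minus wildtype, both overloaded. Bars are SE from the limma fit, filled symbols are called at an adjusted p of 0.05, and genes are grouped by role. In wildtype the rises are largest for Ccna2, Mki67, Top2a and Prc1, and in Mstn-/- muscle for Ccna2, Mki67, Top2a and Bub1. Most points on the right lie below 0, and Rrm1 lies above 0.

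The genotypes were compared next, first without overload. Of the 33 genes 1 was called higher in untreated Mstn-/- than in untreated wildtype muscle and none was lower by limma at the adjusted threshold, while 7.47% of all genes were higher and 6.92% lower, and 4 genes had an unadjusted p under 0.05. The gene was Tpx2 (log2 0.33 ± 0.10, adjusted p = 0.03), with overlapping arrays, and its call was lost in 7 of the 24 fits that left out 1 array (adjusted p up to 0.074): without untreated Mstn-/- replicate 3, 4, 5 or 6 or untreated wildtype replicate 1, 3 or 4. With the mean of its probe sets Pcna was lower in untreated Mstn-/- muscle (-0.50, adjusted p = 0.0069), and with the probe set used here it gave -0.14 (adjusted p = 0.27).

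Under overload 11 of the 33 genes were lower in Mstn-/- than in wildtype muscle and 1 was higher, against 13.2% and 12.4% of all genes, and the median was -0.20 against -0.03 for all genes. The 11 were Mcm3 and Mcm4 of the helicase, Ccna2, Ccnb2 and Plk1, Mki67 and Cenpe, and Kif11, Kif20a, Kif23 and Anln. Ccna2 was 1.44-fold lower (-0.52 ± 0.17, adjusted p = 0.023), Mki67 1.35-fold (-0.43 ± 0.14, adjusted p = 0.021) and Ccnb2 1.31-fold (-0.39 ± 0.13, adjusted p = 0.03). In none of the 11 were all Mstn-/- arrays below all wildtype arrays, which held for 6.36% of all genes. The count was 3 without overloaded Mstn-/- replicate 6 or overloaded wildtype replicate 3, 5 without overloaded Mstn-/- replicate 1, 6 without overloaded wildtype replicate 5, 7 without overloaded Mstn-/- replicate 2 or 4, and 15 without overloaded Mstn-/- replicate 5. This count was 6 with another quantile normalization, with arrays shifted to the same median or with array weights, and 5 with only the groups compared fitted. The calls of Mki67, Ccnb2, Plk1, Cenpe and Kif11 were lost with array weights (adjusted p = 0.064, 0.059, 0.12, 0.053 and 0.066). Those of Mki67, Kif23, Plk1, Cenpe, Kif11 and Anln were lost with only the groups compared fitted (adjusted p = 0.055, 0.058, 0.087, 0.053, 0.093 and 0.076). Plk1 kept its call in 9 of the 24 fits that left out 1 array. The call of Ccna2 was lost without overloaded Mstn-/- replicate 1 or 6 or overloaded wildtype replicate 3 or 5 (adjusted p up to 0.076). Over the alternatives the adjusted p ran from 0.0087 to 0.064 for Mki67, from 0.019 to 0.059 for Ccnb2 and from 0.0084 to 0.058 for Kif23. Kif20a was called lower whichever array was left out and under each of the 8 other alternatives that tested it (adjusted p from 0.011 to 0.045).

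Rrm1 was the gene called higher. Its 6 overloaded Mstn-/- arrays were all above the 6 overloaded wildtype arrays, as in 5.22% of all genes, and the difference was 0.31 ± 0.06 (1.24-fold, adjusted p = 5.9e-04, range over 9 alternatives 3.6e-05 to 0.0018).

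Whether the response to overload itself differed by genotype was tested directly. This was called for 2 of the 33 genes. Tpx2 responded less in Mstn-/- muscle (-0.53 ± 0.14, adjusted p = 0.015) and Rrm1 differed by 0.32 ± 0.09 (adjusted p = 0.022), while 5.35% of all genes were called lower and 5.72% higher. Between the genotypes Tpx2 differed by 0.33 without overload (adjusted p = 0.03) and by -0.20 with overload (adjusted p = 0.16, not called). The larger part of its difference in response thus lay in untreated muscle. For Anln the difference was -0.52 ± 0.18 (adjusted p = 0.067), for Ccna2 -0.48 ± 0.24 (adjusted p = 0.23) and for Prc1 -0.47 ± 0.20 (adjusted p = 0.14), none of them called. The estimate was below 0 in 27 of 33 genes, with a median of -0.19. For all genes 53.7% were below 0, with a median of -0.01. Of the 26 genes risen in both genotypes 23 had an estimate below 0, with a median of -0.20. Of all 3580 genes risen in both genotypes 75.5% were below 0, with a median of -0.13, and 15.8% were called lower. Tpx2, the only one of the 33 called lower, was not among the 26, so no gene of the 26 was called lower. These comparisons share the overloaded arrays with those above. Macrophage markers moved the same way: 6 of 12 were called lower in the difference in response, with a median of -0.60, and so were 4 of 9 fibro-adipogenic progenitor markers, with a median of -0.41. Endothelial markers went the other way, with 3 of 10 called higher, 0 lower and a median of 0.16. The muscle fibre genes did too, with 3 of 8 higher and a median of 0.18. Satellite cell and myoblast markers were mixed, with 1 of 10 higher, 2 lower and a median of -0.06. For 7 smooth muscle and pericyte markers 1 was lower and the median was 0.13. The part of these cells in the genotype differences of the cell cycle genes was not tested.

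Within groups the 33 genes varied together on the overloaded arrays. After subtraction of each group's mean, the mean pairwise correlation of the genes was 0.54 over the 12 overloaded arrays and 0.09 over the 12 untreated arrays, and that of all genes was 0.01 and 0.00 (0.0072 and 0.0049). For the 26 genes risen in both genotypes the values were 0.68 and 0.13. The genes of an array share its RNA sample and its normalization, so this is a description. Near background lay 16 of the 33 genes in each untreated group, against 4 in overloaded wildtype and 5 in overloaded Mstn-/- muscle. Whether this lowered the correlation over the untreated arrays was not tested. On the overloaded Mstn-/- arrays the mean of the 33 genes ran from 7.21 to 7.65, with replicates 3 and 5 at 7.64 and 7.65 and the other 4 at 7.21 to 7.37, and on the overloaded wildtype arrays from 7.45 to 7.81, with replicate 3 highest. Marker levels moved with this mean on some arrays and not on others. Overloaded wildtype replicate 3 also had the highest macrophage (10.3), progenitor (11.5) and neutrophil (7.11) means and the lowest fibre gene mean (12.8) of its group. Overloaded Mstn-/- replicate 6, with the lowest cell cycle mean, had the lowest macrophage (9.25) and progenitor (10.8) means of its group. Replicate 3 of that group had the highest progenitor mean (11.2), while the macrophage means of replicates 3 and 5 were 9.89 and 9.63 in a range of 9.25 to 10.2. The part of these cells was not tested.

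Other genes of the same pathways were looked at as lists. Mitosis genes outside the 34 rose likewise: 30 of 32 rose and 1 fell in wildtype, and 24 rose and 1 fell in Mstn-/- muscle, with medians of 0.52 and 0.36. Over all genes 23.3% rose and 31.7% fell in wildtype, and 20.6% and 30.1% in Mstn-/- muscle. Many of the 32 lay near background: 22 in untreated and 13 in overloaded wildtype, and 21 in untreated and 17 in overloaded Mstn-/- muscle. Cks2, a Cdk1-binding subunit, rose 4.23-fold and 2.92-fold, Smc4 of condensin rose 2.55-fold in wildtype and Mad2l1, the checkpoint protein Mad2, 2.27-fold in Mstn-/- muscle. The gene that fell was Pttg1, securin, an anaphase inhibitor, by 0.81 on the log2 scale in wildtype and by 0.25 in Mstn-/- muscle. Of 23 other replication genes, 6 rose and 3 fell in wildtype and 7 rose and 5 fell in Mstn-/- muscle, with medians of 0.08 and 0.00 (-0.0019). These counts called higher were not far from the shares of all genes (23.3% in wildtype and 20.6% in Mstn-/- muscle). Called lower were 31.7% and 30.1% of all genes. Tyms, thymidylate synthase, rose by 0.88 and 0.62, Gins2 of the replicative helicase rose by 0.33 in wildtype and the primase Prim1 by 0.45 in Mstn-/- muscle. The clamp loader subunit Rfc4 fell by 0.94 and 0.52, the licensing inhibitor Gmnn (geminin) fell by 0.46 in wildtype and the polymerase subunit Pole fell by 0.42 in Mstn-/- muscle.

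Of 11 G1 cyclins and kinases, which act before DNA replication, 9 rose in each genotype and 1 fell in wildtype. Over all genes 23.3% rose and 31.7% fell in wildtype, and 20.6% and 30.1% in Mstn-/- muscle. Cdk6 rose 2.11-fold in each genotype, and Ccnd1, cyclin D1, rose 2.06-fold in wildtype and 2.46-fold in Mstn-/- muscle. Ccne2, an E-type cyclin, fell by 0.25 in wildtype. Without overload Ccnd1 was lower in Mstn-/- than in wildtype muscle (-0.46 ± 0.08, adjusted p = 1.7e-04), with no overlap of arrays.

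Of 19 genes of the E2F, DREAM and related complexes 7 rose and 5 fell in wildtype, and 6 rose and 7 fell in Mstn-/- muscle, while of all genes 23.3% rose and 31.7% fell in wildtype and 20.6% and 30.1% in Mstn-/- muscle. These counts are not far from that background. E2f8, a repressor E2F made during the cycle, rose by 0.75 and 0.83 and Rbl1, the pocket protein p107, by 0.62 and 0.80. The largest falls called in wildtype were those of E2f6 by 1.12 and Lin52, a MuvB subunit, by 0.92. In Mstn-/- muscle they were those of Tfdp2, an E2F partner, by 1.26 and Rbl2, the pocket protein p130 of resting cells, by 0.80. A gene named for 1 genotype can have fallen in the other too. Without overload Tfdp2 was higher in Mstn-/- than in wildtype muscle (1.03 ± 0.07, adjusted p = 1.5e-10). Of 12 cell cycle inhibitors 4 rose and 3 fell in wildtype and 3 rose and 5 fell in Mstn-/- muscle. Cdkn1c, the kinase inhibitor p57, rose by 0.98 and 0.97, Btg1 by 0.83 in wildtype and Btg2 by 0.76 in Mstn-/- muscle. Gadd45g fell by 0.85 and 0.79, Ccng1 by 0.42 in wildtype and Gadd45b by 0.51 in Mstn-/- muscle.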

How the data were processed

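RNA of plantaris muscle from 24 mice was measured on Affymetrix whole-transcript arrays from 1000 ng of total RNA each. The authors deposited 1 intensity per probe set and array, made with RMA (version not named), per the submitters' processing notes. They run from 4.72 to 25588.9, a linear scale, and log2 was taken without a pseudocount. Of 34760 probe sets, the 21640 with exactly 1 gene symbol were used, which gave 19937 genes. The 1321 with several symbols and the 11799 with none were left out. No filter on low values was set, since a gene could pass it through its high group alone.

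A model with 1 mean per group over all 24 arrays (20 residual degrees of freedom) was fitted with limma 3.58.1 in R 4.3.3, with moderated variances (eBayes). In each of 5 comparisons p-values were adjusted by Benjamini-Hochberg over all 19937 genes. The fit was tested on simulated data first. At most 0.0201% of values were identical between any pair of arrays. Replicates are labelled as biological replicates. The members and all gene lists were chosen with earlier results of these data known, so no result is independent support for them. Arrays are given as lowest, median and highest for the members with the largest and smallest overload difference in each role group, the largest genotype differences, and Mki67, Cdk1 and Pcna. Rrm1 was added after its values were seen. From each pathway list up to 2 genes that rose most and 2 that fell most are named. They were picked within each genotype, so a gene named for 1 genotype can have changed in the other too. Cdkn1a and Trp53 had no such probe set and were not analysed here. Promoters were the first listed per gene. Alternatives were another normalization, filters, variance models and arrays left out.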

Additional observations from a re-analysis of the deposited data

Results flagged for a closer look

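On single arrays, 8 of 136 combinations of gene and group (the 33 genes and Mstn) had a highest or lowest array set apart from the other 5, where chance gives about 1 in 20. In overloaded Mstn-/- muscle these were Mcm3 in replicate 5 (7.23, the next 7.02), Birc5 in replicate 5 (6.72, the next 6.45) and Ube2c in replicate 3 (8.07, the next 7.89). In overloaded wildtype muscle they were Ccnb2 in replicate 3 (9.40, the next 8.99), Kif23 in replicate 3 (7.83, the next 7.42) and Mcm7 in replicate 4 (7.99, the next 7.80). In untreated muscle they were Mcm6 in Mstn-/- replicate 2 (5.97, the next 6.26) and Birc5 in wildtype replicate 3 (5.89, the next 6.14).

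The overload response differed between the genotypes, by limma's test of the difference, for Tpx2 (-0.53, adjusted p = 0.015) and Rrm1 (0.32, adjusted p = 0.022) among the 33 genes, and for Mstn (1.18, adjusted p = 8.2e-05). Among the other pathway genes it was positive for Rfc4 (0.42, adjusted p = 0.03), Rpa2 (0.31, 0.0089), Pttg1 (0.56, 0.0018), E2f6 (0.60, 0.0067) and Lin52 (0.35, 0.029). It was negative for Gins2 (-0.27, adjusted p = 0.041), Cenpk (-0.33, 0.045), Kif2c (-0.33, 0.02), Tfdp2 (-0.54, 7.2e-04), Cdkn2c (-0.45, 0.039) and Cdkn2b (-0.25, 0.016).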

How the results depend on the processing

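No called result changed direction under the alternatives run, and signal near background limits how well the size of 15 genes' changes is known. With only genes above the 50th percentile in at least 1 group, 20 of the 33 genes were tested, of which 15 rose in wildtype and 14 in Mstn-/- muscle, 1 was lower under overload in Mstn-/- muscle, none (0) was higher without overload, and 7 were lower in overloaded Mstn-/- than in wildtype muscle. Some genes, such as Ccna2, Mki67 and Top2a, passed this filter through overloaded groups alone. The numbers that rose under it are therefore a description and no support for the rises. Genes lower under overload in Mstn-/- muscle numbered 2 with another quantile normalization, 2 with arrays shifted to the same median and 1 with array weights. Genes lower in overloaded Mstn-/- than wildtype muscle numbered 6 under each of these 3 settings and 5 with only the groups compared fitted. With the mean of all probe sets 1 gene, Pcna, was lower in untreated Mstn-/- muscle. The replicate numbers do not pair the arrays (correlation of same-numbered arrays -0.35 to 0.28), and a replicate block gave 2 genes with a smaller response in Mstn-/- muscle, adding Anln (-0.52, adjusted p = 0.048). Without single arrays in turn, genes higher and lower under overload numbered 28 and 1 to 3 in wildtype and 25 to 27 and 0 to 1 in Mstn-/- muscle, genes higher and lower in untreated Mstn-/- muscle 0 to 1 and 0, in overloaded Mstn-/- muscle 1 and 3 to 15, and in the response 1 and 1 to 3. The cause of these moves was not tested. Shifting the arrays to the same median moved the median of all genes under overload to -0.14 in each genotype (-0.08 as deposited), and its calls from 4651 higher and 6325 lower to 4054 and 9119 in wildtype and from 4109 and 6002 to 3484 and 9292 in Mstn-/- muscle. It moved the genotype calls from 1489 and 1380 to 1791 and 952 without and from 2464 and 2635 to 2730 and 2071 with overload.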

Other observations

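Of the 10 satellite cell and myoblast markers, 4 rose, 2 fell and 4 were not called in wildtype and 5 rose, 2 fell and 3 were not called in Mstn-/- muscle (median log2 difference 0.13 and 0.11). Myog, myogenin, rose by 1.07 ± 0.09 (SE) in wildtype and 1.25 ± 0.09 in Mstn-/- muscle, Mymk, the fusion protein myomaker, by 1.94 and 1.78, and the adhesion protein Vcam1 by 1.45 and 1.52. Pax7, known from resting satellite cells, gave 0.04 ± 0.06 and 0.05 ± 0.06 (limma adjusted p = 0.65 and 0.5). Cdh15, M-cadherin, fell by 0.16 in wildtype and by 0.41 in Mstn-/- muscle. Myod1 fell by 0.52 in Mstn-/- muscle and gave 0.13 ± 0.09 in wildtype (adjusted p = 0.26). The genes named were picked after their values were seen.

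Of 9 lymphocyte markers 4 rose in each genotype, and of 7 neutrophil markers 4 rose in wildtype and 1 in Mstn-/- muscle. In each untreated group 7 of the lymphocyte and 5 of the neutrophil markers lay near background. Of 7 smooth muscle and pericyte markers 3 rose and 2 fell in wildtype and 4 rose and 2 fell in Mstn-/- muscle. Neither of the 2 erythroid markers measured was called under overload.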
